A study of Mus musculus with 2 samples.

Results

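The hypoxia-inducible factor (HIF) genes and the genes of their oxygen-sensing hydroxylases were followed here in RNA from whole mouse eyeballs. They are 10 genes out of 47644 in the deposited table, found by gene symbol, and each symbol matched 1 row. The OIR group is C57BL/6 mice of the oxygen-induced retinopathy model. The design text, which names no group, has mice enter a closed high-oxygen chamber at day 7, leave it for ordinary air after 5 days, and give their eyes on day 17. The NOR group is C57BL/6 mice labelled as control. Each group is 1 library, and the labels give neither the number of eyes or animals behind it, nor their sex, the oxygen level, or the age of the controls. By its design text the series looks into what lies behind lasting visual dysfunction in this model.

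HIF is a pair of proteins, an oxygen-labile alpha subunit and a stable beta subunit, that switches on genes for vessel growth, glucose use and red cell formation when oxygen is scarce. While oxygen is present, the Egln prolyl hydroxylases mark the alpha subunit, the Vhl protein binds the mark, and a ubiquitin ligase sends the subunit to destruction. A further hydroxylase, encoded by Hif1an, blocks the contact of the alpha subunit with its coactivators. In the retina of this model HIF activity in the hypoxic phase is known to drive Vegfa. The control of the alpha subunits acts largely on the protein, which RNA levels do not show.

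In the OIR library the prolyl hydroxylase genes Egln3 and Egln1 stood highest relative to the NOR library, with read-share ratios of 2.84 and 1.72. The beta subunit gene Arnt and the alpha subunit gene Epas1 followed, at 1.46 and 1.31. Hif1a, by far the most abundant of the 10 genes, lay at 0.998, and Hif3a, the scarcest in OIR, at 0.772. Read share means a gene's reads over all reads assigned to genes, and each ratio is OIR over NOR. Of the 10 genes, 1 was at least 2-fold higher in OIR on the scale log2(FPKM + 1), where FPKM is the read count scaled by transcript length and library size, and 0 were at least 2-fold lower. Genes that reached 1 FPKM in OIR or NOR numbered 15883; 3.07% of them stood at least 2-fold higher and 0.718% at least 2-fold lower. All 10 genes passed that filter, in both libraries.

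**Figure D1:**
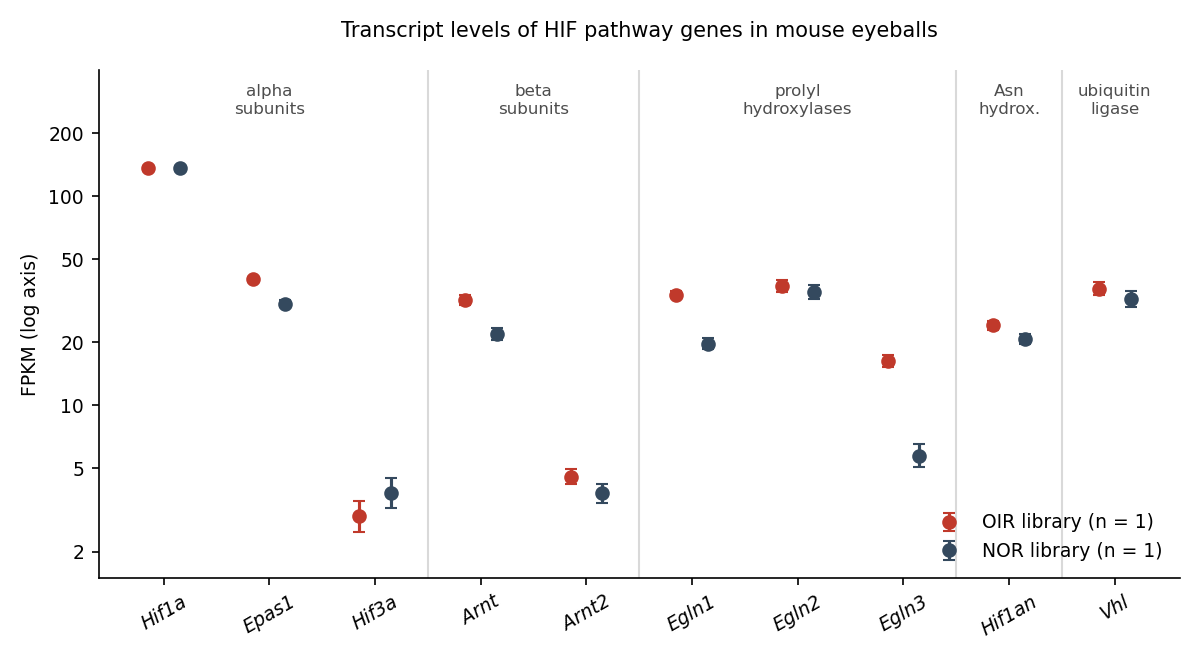
FPKM of each of the 10 genes (log axis) in the OIR library (left point of each pair) and the NOR library (right point), grouped by role; bars are exact 95% Poisson intervals, which cover counting error only. Hif1a stands at 135 FPKM in OIR and 136 in NOR, and Egln3 shows the widest gap, at 16.3 FPKM in OIR and 5.75 in NOR.

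Reads assigned to genes numbered 20378793 in OIR and 15741235 in NOR, and the 10 genes had between 142 and 6651 reads in OIR and between 142 and 5148 in NOR. With 1 library a group no difference has a replicate check and no p-value was computed. The 95% intervals beside ratios are exact conditional intervals that cover counting error only: PCR copies of a molecule were not marked, and the spread between animals is unknown. The median gene with an FPKM of at least 1 stood 0.11 higher in OIR on the log2(FPKM + 1) scale, and the authors' scaling factors lower every log2 ratio by 0.14, so ratios close to 1 have no settled direction. As a check of the tissue, the summed share of 10 rod markers was 2.86% of reads in OIR and 2.83% in NOR, and 12 lens markers, of which Lim2 was listed at 0 in both libraries, took 9.55% in OIR and 13.3% in NOR. The sample thus held retina next to lens and other eye tissue.

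The alpha subunits differed among themselves. Hif1a encodes the subunit found in nearly all cells (ENSMUSG00000021109, mm10 chromosome 12, 73901375 to 73947530, plus strand). It had 6651 reads in OIR and 5148 in NOR, or 135 FPKM in OIR and 136 in NOR, with a ratio of 0.998 (0.962 to 1.04). In read shares the 2 libraries differed by less than counting error for this gene, while with the authors' scaling factors the ratio was 0.906, with an interval below 1. Among the 9 scalings and pseudocounts tried its difference was below 0 in 8 and above 0 in 1, from -0.16 to 0.09 on the log2 scale. Its span overlaps that of Gm15283, an antisense gene with 187 reads in OIR and 61 in NOR, and the strand setting of the counting was not given in the sources used here.

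Epas1 encodes HIF-2 alpha, the subunit abundant in endothelium (ENSMUSG00000024140, chromosome 17, 86753907 to 86833410, plus strand). It had 4324 reads in OIR and 2559 in NOR. Its level was 40.0 FPKM in OIR and 30.6 in NOR, a ratio of 1.31 (1.24 to 1.37) that remained above 1 under every scaling tried, from 0.14 to 0.47 as a difference on the log2 scale. The higher library was OIR, and the counting intervals of the levels did not overlap. Beside it, all 13 endothelial markers were above 0 in their differences, none was at 0 reads, and their summed level was 571 CPM (read shares scaled to a fixed total) in OIR and 329 CPM in NOR, a ratio of 1.74. The part of these markers in the Epas1 difference was not tested. In bulk samples, more cells of a type and more RNA per cell cannot be told apart.

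Hif3a encodes an alpha subunit with splice forms that restrain the others (ENSMUSG00000004328, chromosome 7, 17031507 to 17062427, minus strand). It had 142 reads in each library, which is 2.95 FPKM in OIR and 3.82 in NOR, because the OIR library is deeper. The ratio was 0.772 (0.608 to 0.982), below 1 under every scaling tried, and the intervals of the 2 levels overlapped (2.49 to 3.48 in OIR, 3.22 to 4.51 in NOR). It was the gene with the fewest reads of the 10.

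Ratios of 2 genes within a library need no library size and no scaling factor. For each read of Hif1a there were 0.650 reads of Epas1 in OIR and 0.497 in NOR, so the balance shifted 1.31-fold toward Epas1 (1.23 to 1.39). Hif3a shifted the other way against Hif1a, by a ratio of 0.774 (0.607 to 0.987). By FPKM, Hif1a made up 75.9% of the summed alpha subunit level in OIR and 79.8% in NOR, Epas1 22.4% in OIR and 17.99% in NOR, and Hif3a 1.66% in OIR and 2.25% in NOR. These levels rest on a gene length: with the deposited gene length in place of the length behind the deposited FPKM, Epas1 would make up 36.3% in OIR and 30.2% in NOR. The ratios between libraries do not depend on that length.

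The beta subunits pair with the alpha subunits. Arnt, the general partner (ENSMUSG00000015522, chromosome 3, 95434388 to 95497240, plus strand), had 1523 reads in OIR and 808 in NOR. Its level was 31.9 FPKM in OIR and 21.9 in NOR, with a ratio of 1.46 (1.34 to 1.59), and its difference was above 0 under every scaling tried, from 0.37 to 0.62. Of the 15883 genes, 1798 had a larger difference. A pseudogene within its span, Gm42672, had 22 reads in OIR and 12 in NOR.

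Arnt2, the partner found mainly in neurons (ENSMUSG00000015709, chromosome 7, 84246281 to 84409959, minus strand), had 556 reads in OIR and 358 in NOR. That is 4.56 FPKM in OIR and 3.80 in NOR, a ratio of 1.20 (1.05 to 1.37). Centring within bins of transcript length turned its difference to -0.02, so its direction is not settled. Against Arnt it was lower in OIR, with a read ratio of 0.365 in OIR and 0.443 in NOR and a change of 0.824 (0.702 to 0.968). Arnt made up 87.5% of the summed level of the pair in OIR and 85.2% in NOR, and Arnt2 12.5% in OIR and 14.8% in NOR. With the deposited gene length, the Arnt2 part would be 20.9% in OIR and 24.2% in NOR.

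Of the genes that act on the alpha subunits, the prolyl hydroxylases showed the widest spread. Egln3 encodes PHD3, the family member known to be most inducible by hypoxia (ENSMUSG00000035105, chromosome 12, 54178981 to 54203860, minus strand). It had 885 reads in OIR and 241 in NOR. The level was 16.3 FPKM in OIR and 5.75 in NOR, a ratio of 2.84 (2.46 to 3.28) and a difference of 1.36 on the log2(FPKM + 1) scale. Only 212 of the 15883 genes had a larger difference, and with the authors' scaling factors the ratio was 2.57. No other listed gene overlaps its span.

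Egln1 encodes PHD2, the enzyme that sets most of the alpha subunit turnover in normal oxygen (ENSMUSG00000031987, chromosome 8, 124908596 to 124949254, minus strand). It had 2417 reads in OIR and 1088 in NOR, or 33.7 FPKM in OIR and 19.7 in NOR. The ratio was 1.72 (1.60 to 1.84), or 1.56 with the authors' scaling factors, and 842 genes had a larger difference. Egln1 and Egln3 are themselves known targets of HIF. They were the 2 genes of the 10 at least 1.5-fold higher in OIR on the log2(FPKM + 1) scale, where 9.11% of all 15883 genes were; 0 of the 10 were at least 1.5-fold lower, where 2.58% of all were.

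Egln2 encodes PHD1, which is not a classical HIF target (ENSMUSG00000058709, chromosome 7, 27158658 to 27166802, minus strand). It had 897 reads in OIR and 650 in NOR, or 37.0 FPKM in OIR and 34.7 in NOR. The ratio of 1.07 had an interval that held 1 (0.963 to 1.18), and its difference was above 0 in 6 and below 0 in 3 of the 9 scalings and pseudocounts tried. Its span overlaps Cyp2t4 on the other strand, which had 41 reads in OIR and 15 in NOR.

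The make-up of the prolyl hydroxylase family differed between the libraries. Against Egln2, the Egln3 read ratio was 0.987 in OIR and 0.371 in NOR, a change of 2.66 (2.23 to 3.18), and that of Egln1 was 2.69 in OIR and 1.67 in NOR, a change of 1.61 (1.42 to 1.83). Egln3 also stood higher against Egln1, with a change of 1.65 (1.41 to 1.95). Egln2 was 42.5% of the family's summed FPKM in OIR and 57.7% in NOR, Egln1 38.8% in OIR and 32.7% in NOR, and Egln3 18.7% in OIR and 9.56% in NOR. These shares rest on a gene length, and so does the lead of Egln2. With the deposited gene length, Egln1 stood at 33.7 FPKM and Egln2 at 20.9 in OIR. In NOR they then stood at 19.7 and 19.6 FPKM. Summed over the family the level was 87.1 FPKM in OIR and 60.1 in NOR, while the summed alpha subunits stood at 178 in OIR and 170 in NOR. Per FPKM of alpha subunit there were 0.488 FPKM of prolyl hydroxylase in OIR and 0.353 in NOR, a quotient chosen after the values were seen. The quotient rests on the same lengths and was not computed with the deposited ones.

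**Figure D2:**
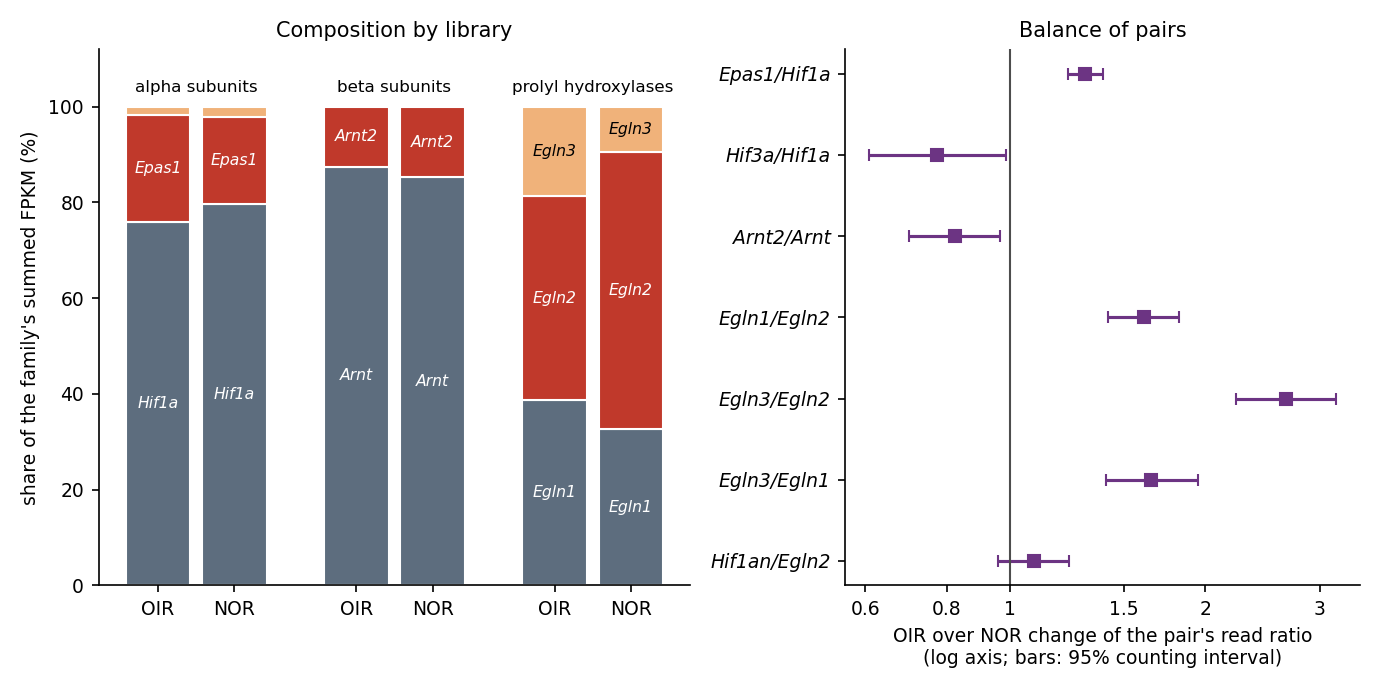
Left, share (%) of each gene in its family's summed FPKM, with OIR left of NOR in each pair of bars; the unlabelled top segment of the alpha subunits is Hif3a (1.66% in OIR, 2.25% in NOR). Right, the change in the read ratio of 7 gene pairs, OIR over NOR (log axis), with exact 95% counting intervals; the Egln3/Egln2 pair has the highest value, 2.66, and the Hif1an/Egln2 interval holds 1.

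The promoters of the Egln genes are shown because this family held the widest spread of ratios. Each window runs from 250 bases before to 50 after the start site (RefSeq, GRCm38.p6, minus strand, 5′ to 3′). Capitals mark the core letters of the hypoxia response element, ACGTG or GCGTG, on either strand, and ACGTG also occurs inside the E-box CACGTG. The windows lie at chr12:54203825-54204124 for Egln3, chr8:124949205-124949504 for Egln1 and chr7:27166753-27167052 for Egln2.
Egln3: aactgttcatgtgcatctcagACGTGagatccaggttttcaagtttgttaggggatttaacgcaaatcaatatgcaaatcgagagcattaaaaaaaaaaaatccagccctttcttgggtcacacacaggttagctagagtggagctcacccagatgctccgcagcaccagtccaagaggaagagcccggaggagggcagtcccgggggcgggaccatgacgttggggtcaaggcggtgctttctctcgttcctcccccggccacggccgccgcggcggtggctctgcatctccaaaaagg
Egln1: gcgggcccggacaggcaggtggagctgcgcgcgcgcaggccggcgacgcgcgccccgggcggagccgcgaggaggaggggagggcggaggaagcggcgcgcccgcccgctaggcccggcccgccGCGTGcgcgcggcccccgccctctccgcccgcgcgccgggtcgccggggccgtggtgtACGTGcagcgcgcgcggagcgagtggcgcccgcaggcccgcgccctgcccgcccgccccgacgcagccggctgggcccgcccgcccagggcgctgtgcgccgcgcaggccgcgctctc
Egln2: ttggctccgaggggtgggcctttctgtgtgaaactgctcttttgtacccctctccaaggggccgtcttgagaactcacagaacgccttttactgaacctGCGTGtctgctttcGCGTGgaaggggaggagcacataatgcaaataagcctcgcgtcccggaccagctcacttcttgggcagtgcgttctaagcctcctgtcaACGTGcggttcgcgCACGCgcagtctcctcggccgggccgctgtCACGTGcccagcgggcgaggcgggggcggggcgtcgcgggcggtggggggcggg
Egln3, with the highest ratio, held 1 match, at base -229 from the start site. Egln1 held 2, at -126 and -68, and Egln2, with a ratio near 1, held 6, a pair of them the 2 strands of 1 CACGTG. A second RefSeq start of Egln2 held 1. Of 32851 RefSeq promoter windows of this length, 43.8% held at least 1 match and 20.6% held at least 2. Of the 9 genes with a window, Hif1a held 3, Hif3a 2 and Arnt 1, and Vhl, Hif1an and Arnt2 none. The Hif1a window has its start site inside the gene's listed span, and a pair of its 3 matches are the 2 strands of 1 CACGTG. A match is a description of letters, and says nothing of whether a factor binds there.

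Hif1an encodes FIH, the asparaginyl hydroxylase of the alpha subunits (ENSMUSG00000036450, chromosome 19, 44562850 to 44576274, plus strand). It had 1734 reads in OIR and 1154 in NOR, or 24.1 FPKM in OIR and 20.8 in NOR, with a ratio of 1.16 (1.08 to 1.25). Its difference was 0.21 on the log2(FPKM + 1) scale against 0.11 for the median gene, and reached down to 0.02 when centred within bins of transcript length. Against Egln2 its read ratio changed 1.09-fold, with an interval that held 1 (0.958 to 1.24).

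Vhl encodes the subunit that recognises the hydroxylated alpha subunit (ENSMUSG00000033933, chromosome 6, 113623959 to 113631633, plus strand). It had 753 reads in OIR and 519 in NOR, or 36.2 FPKM in OIR and 32.3 in NOR. The ratio was 1.12 (1.0008 to 1.26), or 1.02 with the authors' scaling factors. The intervals of the 2 levels overlapped.

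**Figure D3:**
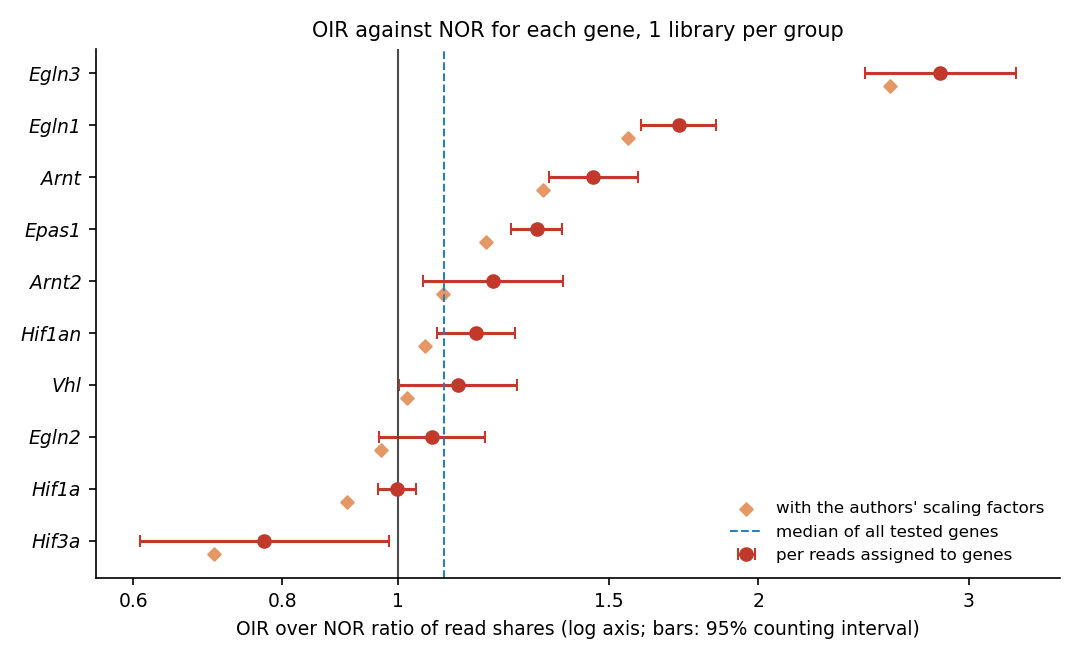
OIR over NOR ratio of read shares for each gene (log axis). Circles with bars are ratios per reads assigned to genes with 95% counting intervals, diamonds the same ratios with the authors' scaling factors, and the dashed line the median of all genes with an FPKM of at least 1. Egln3 (2.84) and Egln1 (1.72) stand farthest to the right, and Hif3a (0.772) farthest to the left.

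Across the 10 genes, 8 had a difference above 0 and the median difference was 0.21, beside 0.11 over all 15883 genes, of which 64.9% had a ratio above 1. The counting interval lay above 1 for 7 of the 10 genes and below 1 for 1, where it did so for 36.7% and 14.7% of all 15883 genes. The 7 include Vhl, whose interval began at 1.0008. Read depth bears on such a count: 8 of the 10 genes had more reads in both libraries than the median of these genes, 438 in OIR and 309 in NOR. With the authors' scaling factors the intervals of 4 genes, Egln3, Egln1, Arnt and Epas1, lay above 1 and those of Hif1a and Hif3a below 1, where 23.2% and 25.4% of all 15883 genes did. The authors' deposited table gave Egln3 a log2 fold change of 1.36 with an adjusted p of 0.0138 and Egln1 one of 0.64 with an adjusted p of 0.0202, from a comparison of 1 library with 1 library. It marked neither as changed, and the largest adjusted p among genes it marked was 0.00458. For Epas1 and Arnt the authors' deposited table gave adjusted p-values of 0.329 and 0.742.

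**Figure D4:**
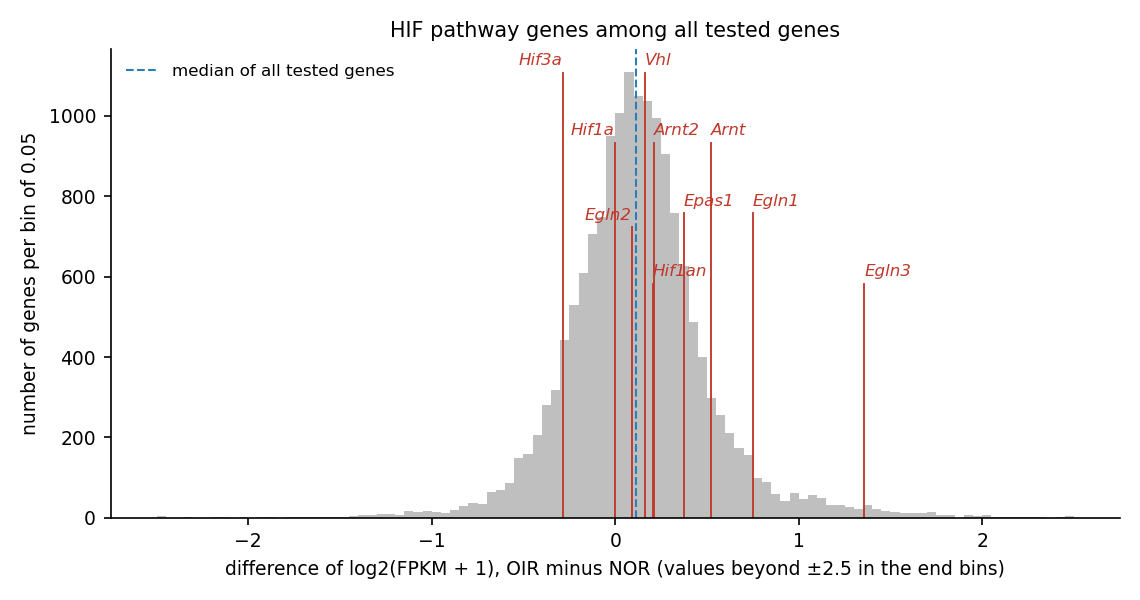
Number of genes by difference of log2(FPKM + 1), OIR minus NOR, over the 15883 genes with an FPKM of at least 1, with the 10 genes marked by red lines whose heights have no meaning. Most of the 10 lie in the bulk of the distribution; Egln1 (0.75) and Egln3 (1.36) lie in its right tail, and Hif3a (-0.29) on the left.

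By the deposited FPKM, the order of the levels differed in part between the libraries. In OIR, Hif1a came first at 135 FPKM, followed by Epas1, Egln2, Vhl, Egln1 and Arnt from 40.0 to 31.9 FPKM, among which neighbours did not differ beyond their counting intervals. Hif1an, Egln3, Arnt2 and Hif3a then followed, each separate from the one before. In NOR, Hif1a at 136 FPKM was followed by Egln2, Vhl and Epas1, from 34.7 to 30.6 FPKM, and then by Arnt, Hif1an and Egln1, from 21.9 to 19.7 FPKM, with overlap between neighbours inside each of these groups. Egln3 came next at 5.75 FPKM, and Hif3a and Arnt2, at 3.82 and 3.80 FPKM, could not be told apart. With the deposited gene length Hif1a was still first in both libraries, at 69.1 FPKM in OIR and 69.2 in NOR. Hif3a was then last in both, at 1.09 FPKM in OIR and 1.41 in NOR, and Vhl moved to rank 8 in OIR and rank 7 in NOR. Epas1, Egln1, Egln2 and Arnt then held ranks 2, 3, 4 and 5 in both libraries. The differences in order among these genes thus depend on the gene length used. In NOR, Egln1 and Egln2 lay close by that length, at 19.7 and 19.6 FPKM.

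Genes of the proteins that work with Vhl in its ubiquitin ligase lay on both sides of 0 in read shares. Of 10 listed partner genes 4 were above 0 and 6 below, 0 were at least 2-fold higher or lower, and the counting interval lay above 1 for 2 and below 1 for 4. Over all 15883 genes, 64.9% were above 0, and the interval lay above 1 for 36.7% and below 1 for 14.7%. The median difference of the partner genes was -0.04, and it moved with the scaling, to -0.18 with the authors' scaling factors, -0.16 when centred on the median of all genes and 0.05 after rescaling to TPM. Nedd8, a ubiquitin-like protein that activates the cullin, had a ratio of 0.749 (0.698 to 0.803). Tceb2, the gene of the elongin B subunit, had 0.805 (0.758 to 0.856), and Rbx1, the ring finger subunit, 0.841 (0.785 to 0.902). These 3 were named as the partners farthest below 0, so a comparison of Vhl with them shows nothing. Vhl had 1.12, and Cand1, another partner chosen after its values were seen, 1.13 (1.06 to 1.21).

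HIF cofactors and regulators were split, with 14 of 28 genes above 0 and 14 below, where 64.9% of all 15883 genes were above 0. Their median was 0.00, or -0.13 with the authors' scaling factors. Only Hsp90aa1, an inducible chaperone that holds the alpha subunit among many clients, was at least 2-fold higher, where 3.07% of all genes were. It had 26798 reads in OIR and 947 in NOR, a ratio of 21.9 (20.5 to 23.3). Wsb1, a ubiquitin ligase subunit reported to act on Vhl in human cells, had a ratio of 1.58 (1.47 to 1.69), and Crebbp, a coactivator, 1.40 (1.302 to 1.498). The rule names genes on the side of the median, which here is close to 0. On the other side, and chosen after their values were seen, Rwdd3, which promotes the attachment of SUMO, had 0.587 (0.405 to 0.849), and Siah1b, a ubiquitin ligase, 0.640 (0.480 to 0.852). Among others chosen in the same way, the coactivator gene Ep300 had 1.25 (1.18 to 1.32), and Cited2, which competes with the alpha subunits for these coactivators, 0.966 (0.910 to 1.02).

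Genes listed around the bHLH-PAS transcription factors, the class to which all HIF subunits belong, numbered 14 after the filter. The list also holds the coactivator genes Ncoa1, Ncoa2 and Ncoa3. It further holds the clock genes Per1, Per2 and Per3, which lack the bHLH domain. Of the 14 genes, 13 lay above 0, where 64.9% of all 15883 genes did. Among the 13, Npas3 and Npas4, the latter chosen after its values were seen, passed the filter through OIR alone. A gene that passes so has to lie above 0. Npas4 stood at 1.03 FPKM in OIR and 0.582 in NOR. The median difference of the 14 was 0.34, beside 0.11 over all 15883 genes. Of the 14, 1 gene was at least 2-fold higher, where 3.07% of all genes were. That gene was Ahr, the aryl hydrocarbon receptor, which like the alpha subunits pairs with Arnt. It had 1924 reads in OIR and 557 in NOR, a ratio of 2.67 (2.43 to 2.94). Npas3 had 164 reads in OIR and 45 in NOR, a ratio of 2.82 (2.01 to 4.01), at 1.37 FPKM in OIR and 0.486 in NOR, and a difference of 0.67. Arntl2, a clock gene, had 105 reads in OIR and 54 in NOR, at 3.19 FPKM in OIR and 2.12 in NOR.

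Other enzymes that use oxygen, nearly all of them with 2-oxoglutarate as the Egln proteins do, numbered 30. The exception is Ado, a thiol dioxygenase. Of the 30 genes, 26 lay above 0, none reached 2-fold in either direction, and their median difference was 0.30. Of all 15883 genes, 64.9% lay above 0, 3.07% were at least 2-fold higher and 0.718% at least 2-fold lower, with a median of 0.11. P4ha3, named after its values were seen, passed the filter through OIR alone, so it had to lie above 0. Kdm3a, P4ha1 and P4ha2 are also listed among the HIF targets. Plod2 and Plod1, which hydroxylate collagen lysines, had ratios of 1.84 (1.60 to 2.12) and 1.65 (1.49 to 1.83). Kdm6b, a histone H3 demethylase, had 1.69 (1.58 to 1.81). P4htm, a membrane-bound prolyl hydroxylase reported to act on HIF alpha in human cells and chosen after its values were seen, had 0.961 (0.871 to 1.06). The Egln3 difference of 1.36 was larger than that of any of these 30 genes, whose highest was 0.81, while that of Egln1, at 0.75, lay within their range.

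HIF target genes had a higher median difference than the 10 genes, without a test. Without Egln1 and Egln3, 39 of 43 were above 0, 8 were at least 2-fold higher and 0 at least 2-fold lower, and the median was 0.51. Of all 15883 genes, 64.9% were above 0, 3.07% at least 2-fold higher and 0.718% at least 2-fold lower, with a median of 0.11. The 4 targets below 0, chosen after their values were seen, were Aldoc (0.745), Hmox1 (0.793), Narf (0.828) and P4ha1 (0.906). Their counting intervals lay below 1. The targets farthest up were Adm, a vessel-dilating peptide, with 305 reads in OIR and 15 in NOR, Stc2, a secreted glycoprotein, with 364 reads in OIR and 70 in NOR, and Vegfa. Of the 8, Adm and Epo passed the filter through OIR alone, and a gene that passes so has to be higher there. Epo had 21 reads in OIR and 1 in NOR. Genes reported as responsive to HIF-2 in endothelium or kidney numbered 13. Their median was 0.74, all 13 lay above 0, and 4 stood at least 2-fold higher, Epo among them. Angpt2, which loosens vessels, had a ratio of 3.86 (3.08 to 4.89). Vwf, which carries a clotting factor, had 3.38 (2.98 to 3.85). This list shares 5 genes with the endothelial markers given above. In log2 ratio the genes of these lists nearest to Egln3 were Npas3, Pfkp and Vegfa, with ratios of 2.82, 2.79 (2.70 to 2.87) and 2.99 (2.86 to 3.12), a likeness over 2 libraries that says nothing of shared control. Slc2a1, the glucose transporter gene of the blood-retina barrier, had 1.16 (1.12 to 1.20), close to Hif1an and Vhl and below Egln1.

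**Figure D5:**
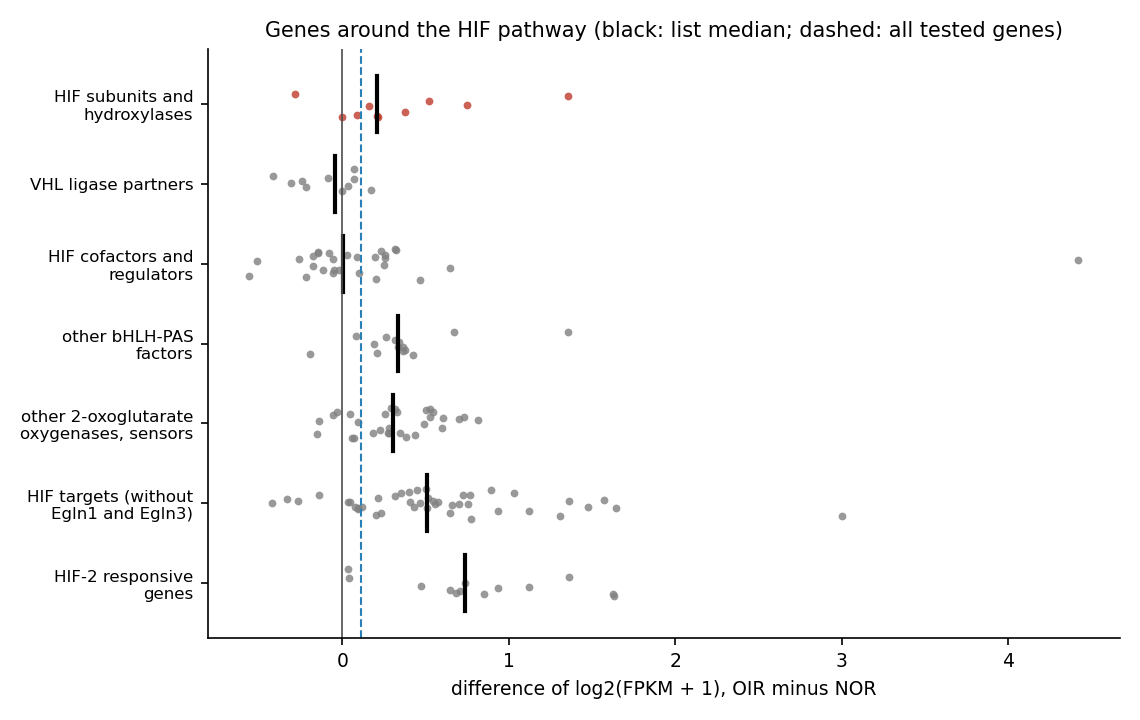
Difference of log2(FPKM + 1), OIR minus NOR, for each gene with an FPKM of at least 1 (points, scattered up and down for sight), by list; black bars are list medians and the dashed line is the median of all 15883 genes. The 10 HIF subunit and hydroxylase genes (red) have a median of 0.21, VHL ligase partners -0.04 and HIF targets 0.51; the point at 4.42 is Hsp90aa1.

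Genes of other eye tissues differed between the libraries next to these results. All 12 corneal and conjunctival epithelium markers were above 0, none at 0 reads, and 9 were at least 2-fold higher, with a summed level of 2389 CPM in OIR and 762 CPM in NOR. The 5 erythrocyte markers that passed the filter had a median difference of 1.39, and each stood 2-fold higher or more. Microglia and macrophage markers, of which 7 of 8 were above 0, summed to 93.6 CPM in OIR and 60.7 CPM in NOR. Astrocyte markers summed to 381 CPM in OIR and 205 CPM in NOR, but of the 5 that passed the filter 3 were above 0 and 2 below, with a median of 0.10 and 1 at least 2-fold higher. Müller glia markers, of which 2 of 8 were above 0, summed to 3993 CPM in OIR and 5127 CPM in NOR. Ganglion cell markers, of which 1 of 8 was above 0, summed to 536 CPM in OIR and 771 CPM in NOR. Ribosomal RNA genes took 0.153% of reads in OIR and 0.00791% in NOR. Rescaled without lens, muscle, erythrocyte, mitochondrial and ribosomal RNA genes, the log2(FPKM + 1) differences were 1.28 for Egln3, 0.64 for Egln1, 0.41 for Arnt and 0.26 for Epas1. That step changes only the library size behind the FPKM. Beyond it, the part of these tissues and of ribosomal RNA in the differences of these 4 genes was not tested.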

How the data were processed

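Total RNA of eyeballs was sequenced, 1 library each for OIR and NOR, from NEBNext Ultra kits per the labels' protocols. TopHat2 2.0.12, Bowtie2 2.2.3, HTSeq 0.6.1 and build mm10 are listed in the submitters' processing notes; their roles, annotation release and strand setting were not given in the sources used here. Per the file headers, the authors deposited read counts and FPKM per gene, a gene length given as another number, a signal (counts scaled by a factor for each library), p-values and a log2 fold change for OIR against NOR, and their call; its tool was not given in the sources used here. Over 22320 genes read in OIR and NOR alike, the deposited counts and FPKM implied the same length in both within 0.1%; it equalled the deposited length within 1 base for 4 of the 10 genes.

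Of the table, 5 broken lines were dropped, leaving 47644 genes. Differences are of log2(FPKM + 1), OIR minus NOR, which understate the change of low genes; ratios are of read shares with exact conditional 95% intervals, pair ratios with exact conditional odds ratio intervals (SciPy 1.17.1, pandas 2.3.3, Python 3.11.15). The ratio intervals were tested on simulated Poisson counts, the error that they assume. That check therefore does not reach PCR copies or the spread between animals. Symbols missing from the table came from a gene name table by Ensembl identifier, gene types from GENCODE and promoters from RefSeq. With 1 library a group no test was made. The genes and lists were chosen with earlier results of these data known. Genes named beyond the 10 are the 3 of each list farthest in the direction of its median, the 3 nearest to Egln3 in log2 ratio, Vegfa and Slc2a1, unless marked as chosen after their values were seen; some items are not reported here. Alternatives were other pseudocounts, filters, scalings, gene lengths and thresholds.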

Additional observations from a re-analysis of the deposited data

How the results depend on the processing

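No paired analysis was possible because each group has 1 library and no numbered replicates, and for the same reason no replicate could be left out. The count of the 10 genes at least 2-fold higher, 1, was the same under both pseudocounts (0.1 and 0.01), all scalings, the deposited gene length and both filters; it was 2 at a threshold of 1.5-fold and 0 at 4-fold. The count at least 2-fold lower was 0 under all of these. The median difference over the 10 genes stayed above 0, from 0.08 with the authors' scaling factors to 0.30 with TPM, and the mean was 0.34, while the median of all genes ran from -0.01 to 0.21. The surrounding lists held 133 genes that passed the filter, each counted once and without the 10 genes. Of these 133, 12 were at least 2-fold higher and 0 lower, where 3.07% and 0.718% of all 15883 genes were. Adm and Epo, among the 12, passed the filter through OIR alone and so had to be higher there. The 12 became 34 at 1.5-fold, where 9.11% of all genes stood, 2 at 4-fold, and 11 to 15 under the other alternatives. With the deposited gene length, Epas1 was 36.3% of alpha subunit FPKM in OIR and 30.2% in NOR, Arnt2 20.9% of beta subunit FPKM in OIR and 24.2% in NOR, and Egln3 23.0% of prolyl hydroxylase FPKM in OIR and 12.8% in NOR, since that length enters the FPKM by construction. Of 80 values of single genes under the alternatives, 21 moved by more than the margin of their counting interval. Egln3, the gene at least 2-fold higher, kept its sign under all of them, while Hif1a (to 0.09 with TPM), Arnt2 (to -0.02 within length bins) and Egln2 (to as low as -0.05 with the authors' scaling factors) changed sign under at least 1. Leaving out Egln1 and Egln3 from the HIF targets (0.51) or Hsp90aa1 from the cofactors (-0.02) was chosen after seeing the data. Depth limits Hif3a most, with 142 reads in each library.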
